A study of Rattus norvegicus with 9 samples.

Results

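The transcripts of 10 eicosanoid enzymes were followed in dorsal root ganglia (DRG) of rats, 6 of them on the lipoxygenase side of the pathway (Alox15, Alox12, Alox5, Alox5ap, Lta4h and Ltc4s) and 4 on the cyclooxygenase side (Ptgs1, Ptgs2, Ptgds and Ptges). They were taken by symbol from a table of 20194 genes. Alox15 and Ptgds were chosen by their strong changes of FPKM in these same libraries, so their values are given as a description with no test, while the other 8 enzymes were tested. Of the 10 genes, 8 reached an FPKM (fragments mapped to a transcript, scaled to its length and to the size of the library) of 1 in at least 1 library, and Alox12 and Ptgs2 did not. The RNA came from adult male Sprague Dawley rats, with 3 sham-operated, 3 with spared nerve injury (SNI), in which branches of the sciatic nerve are cut and the sural branch is kept, and 3 with SNI followed by G15, an antagonist of the G protein-coupled oestrogen receptor GPER. Per the labels, catheters into the intrathecal space were placed on day 5 after SNI and the drug, in 2% DMSO, was given over 24 h. The titles mark the sham and SNI libraries as the control for G15 and this protocol text is the same for all 9 libraries, but it does not say what the sham and SNI rats were injected with. The labels do not say whether a library is 1 rat or a pool. The study's methods can be read as giving as many rats as libraries, while a supplementary list gives more. The p-values therefore measure the spread between libraries, which may be partly technical.

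In its group, SNI + G15 replicate 3 stood apart: the mean chi-square per gene, which compares the counts of a pair of libraries and is near 1 under sampling noise, was 8.5 and 8.24 against replicates 1 and 2, which gave 3.08 between them. In sham the pairs gave 3.69 to 4.6 and in SNI 2.56 to 2.65. Without this library, the calls of Ptges with G15 and of Alox5ap against sham held, and those of Alox5 and Ltc4s against sham were lost.

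Eicosanoids are signalling lipids made when phospholipases free arachidonic acid from membranes. Cyclooxygenases convert it to prostaglandin H2, from which terminal synthases make the prostaglandins and thromboxane, and lipoxygenases convert it to leukotrienes, hydroxy acids and lipoxins. In sensory ganglia, prostaglandin E2 is known for sensitising nociceptive neurons, and lipid mediators of the lipoxygenase branch act on leucocytes and on sensory endings.

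After injury Alox15 and Ptgds stood on opposite sides of sham, and only Alox15 was much altered again with G15. Alox15 was 36.3-fold higher in SNI than in sham and 10.8-fold lower in SNI + G15 than in SNI, whereas Ptgds was 5.21-fold lower in SNI than in sham and 1.07-fold higher in SNI + G15 than in SNI. Ptges, the inducible synthase of prostaglandin E2, rose 2.28-fold in SNI against sham and a further 1.68-fold in SNI + G15 against SNI. The remaining enzymes differed by at most 1.55-fold in any comparison.

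Of the 8 tested enzymes, 2 were called in SNI against sham (Alox5 and Ptges), where 45.7% of all tested genes were called, 23.3% higher and 22.4% lower. In SNI + G15 against SNI only Ptges was called, beside 15.2% of all genes, 7.98% higher and 7.25% lower. In SNI + G15 against sham 4 were called (Alox5, Alox5ap, Ltc4s and Ptges), beside 43.2% of all genes, 21.4% higher and 21.9% lower. All of these calls were higher in the first group named. The libraries of the groups did not overlap in FPKM for 4 of the 8 in SNI against sham (53.9% of all genes), for 4 in SNI + G15 against SNI (38.3%) and for 6 in SNI + G15 against sham (52.9%). With 8 genes and comparisons that share libraries, nothing particular to the enzymes as a group is read from these counts.

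**Figure D1:**
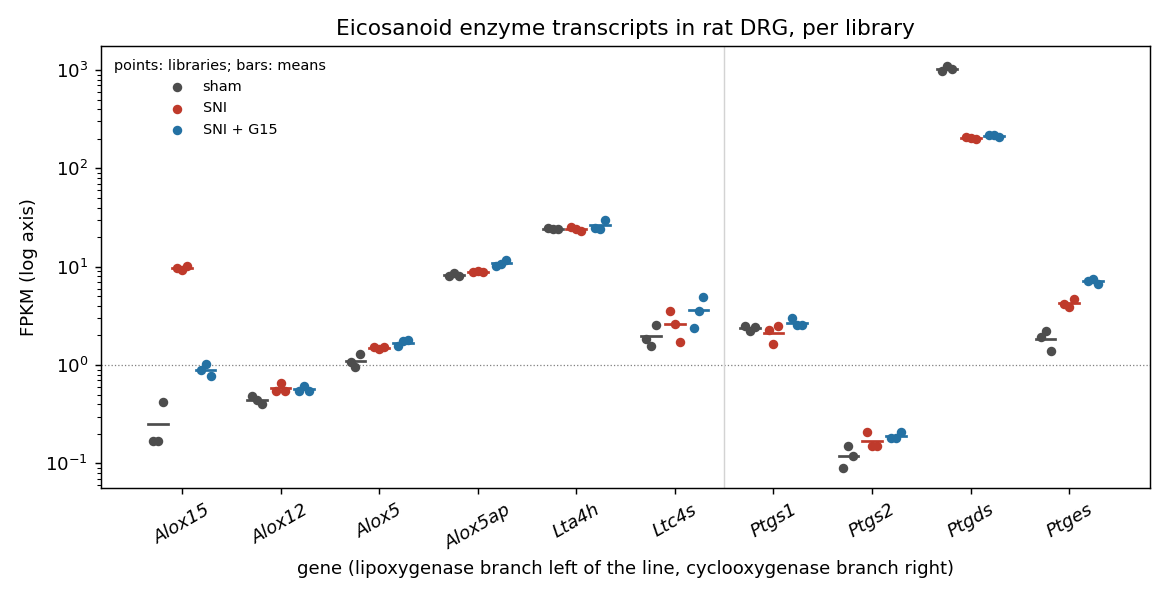
FPKM of the 10 enzymes on a log axis, with 1 point per library and a bar at the mean of each group of 3; the dotted line marks an FPKM of 1. Alox15 stands apart in SNI, Ptgds in sham, and the Ptges points of the 3 groups do not overlap.

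The base sequences in front of the 2 prostaglandin synthases whose levels moved are shown to place them. The RefSeq promoter table (build GRCr8) held 8 of the 10 genes, and Alox15 and Alox5ap were not among them. Each window runs from 250 bases before the annotated gene start to 50 bases after it, written 5′ to 3′ on the gene's own strand, with the letters matched by the motifs named after them in capitals. Ptgds lies on the minus strand (GRCr8 chr3:28682929-28683228), as does Ptges (GRCr8 chr3:34586938-34587237).
Ptgds: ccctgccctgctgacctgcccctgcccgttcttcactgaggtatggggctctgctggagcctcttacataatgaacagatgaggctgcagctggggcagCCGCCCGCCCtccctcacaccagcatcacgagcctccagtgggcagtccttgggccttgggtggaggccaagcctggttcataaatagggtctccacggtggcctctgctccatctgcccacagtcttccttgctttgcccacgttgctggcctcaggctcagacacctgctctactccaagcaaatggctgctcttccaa
Ptges: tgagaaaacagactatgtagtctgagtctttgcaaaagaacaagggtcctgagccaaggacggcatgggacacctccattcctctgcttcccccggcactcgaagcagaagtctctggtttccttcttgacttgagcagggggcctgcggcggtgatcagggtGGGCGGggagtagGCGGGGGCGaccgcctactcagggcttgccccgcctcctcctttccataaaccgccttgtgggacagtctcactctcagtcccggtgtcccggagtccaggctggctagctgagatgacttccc
A search for 5 motifs was run on both strands of 33469 windows of this length. The Sp1 GC box GGGCGG was found in 33.1% of all windows, with 2 overlapping matches in Ptgds starting at positions -151 and -147 and 1 in Ptges at -87. It does not set these 2 genes apart: Alox5, Lta4h and Ptgs2 had 1 match each and Alox12 had 3, while Ptgs1 and Ltc4s had none. The EGR site GCGGGGGCG was found in 2.73% of all windows, and in Ptges at position -74 but not in the windows of the other 7 enzymes. The AP-1 site TGANTCA (7.33% of all windows), the cAMP response element TGACGTCA (1.83%) and the TATA box TATAAA (14.2%) matched in none of the 8. A match describes letters only, and no factor binding was measured.

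On the lipoxygenase side, Alox15 encodes an enzyme that oxygenates arachidonate near its tail and is known from eosinophils, some macrophages and maturing red cells. Its FPKM was 0.17, 0.17 and 0.42 in the sham libraries, 9.75, 9.30 and 10.25 in SNI, and 0.89, 1.02 and 0.78 in SNI + G15. The groups did not overlap, and the SNI + G15 libraries lay between the other 2 groups, closer to sham. The log2 fold change was 5.18 (SE 0.187) for SNI against sham, -3.43 (SE 0.102) for SNI + G15 against SNI, and 1.73 (SE 0.371) for SNI + G15 against sham. The values against sham rest on few reads: the estimated counts were 7, 7 and 18 in sham, 399, 382 and 419 in SNI, and 36, 42 and 32 in SNI + G15. Without sham replicate 3, the library with 18, the log2 fold changes against sham were 5.79 for SNI and 2.33 for SNI + G15. In rank by mean FPKM among all genes, Alox15 stood at 15444 in sham, 7068 in SNI and 13813 in SNI + G15.

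Alox15 thereby changed the make-up of the lipoxygenase transcripts. Of the summed FPKM of 7 lipoxygenase genes, it held 7.91% to 16.3% in the sham libraries, 77.8% to 79.5% after SNI, and 23.4% to 27.0% with G15. Alox5 held 49.2% to 50.6% across sham, 11.9% to 12.5% after SNI, and 46.0% to 53.8% with G15, so that it was the leading lipoxygenase transcript of the sham and SNI + G15 libraries and Alox15 that of the SNI libraries.

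**Figure D2:**
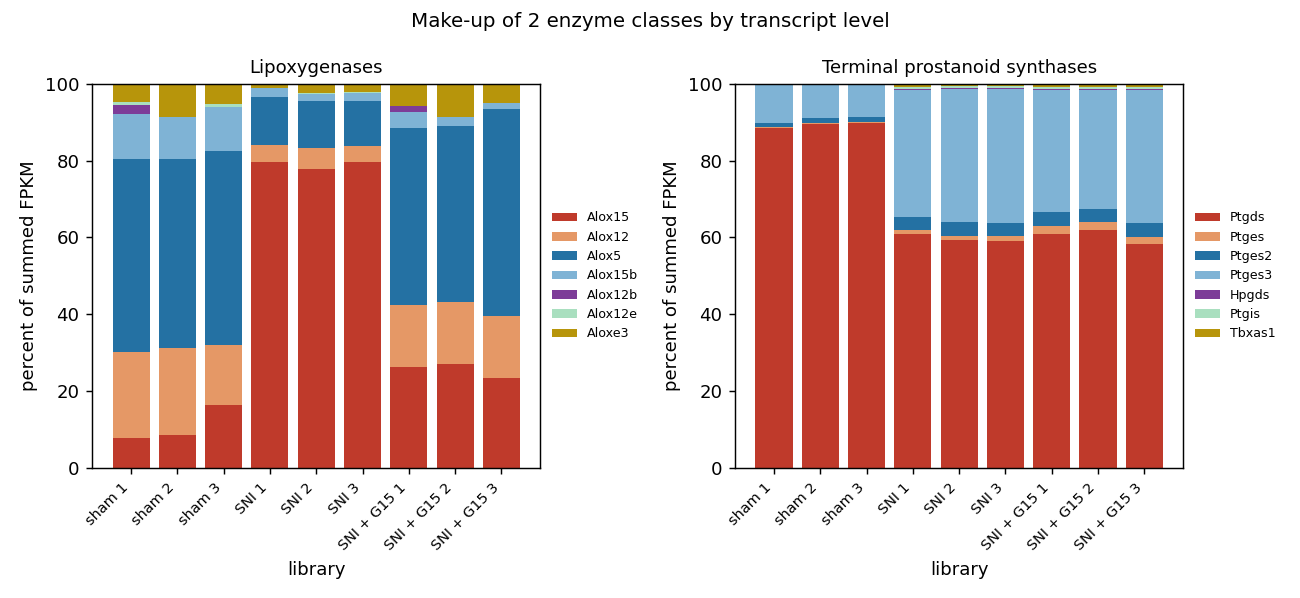
Share of each gene in the summed FPKM of 7 lipoxygenases (left) and 7 terminal prostanoid synthases (right), 1 bar per library. Alox15 takes 77.8% to 79.5% of the lipoxygenase sum in SNI, and the Ptgds share is 88.5% to 89.8% in sham and 58.2% to 61.9% in the 6 injured libraries.

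The 5 genes whose log2(FPKM + 1) followed Alox15 most closely over the 9 libraries were Hoxc11 (Pearson r = 0.9896), the red cell anion exchanger Slc4a1 (0.9884), the haem synthesis enzyme Alas2 (0.9878), Irgm2 (0.9874) and the interferon-induced chemokine Cxcl9 (0.9866). These correlations share all 9 libraries and describe likeness only. Cxcl9, for example, had a mean FPKM of 4.87 in sham, 25 in SNI and 8.13 in SNI + G15. The estimated counts of Irgm2 were not whole in 9 of 9 libraries, so its level is uncertain.

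Markers of cells known to carry Alox15 moved with it in part, and whether they account for any of its change was not tested. The summed FPKM of 7 erythroid genes was 258.2 to 299.6 across sham, 879.6 to 930.3 after SNI, and 532.3 to 594.0 with G15. All 7 were called higher in SNI against sham (beside 23.3% of all genes) and all 7 lower in SNI + G15 against SNI (beside 7.25%), among them Slc4a1, which rose by 2.08 and then fell by 1.32 on the log2 scale (adjusted p = 7.76e-08 and 5.89e-05, edgeR). The sum of 7 eosinophil genes was 3.73 to 4.37 across the sham libraries, 10.2 to 10.7 after SNI, and 8.52 to 9.68 with G15. Of these, 4 passed the filter, but Epx, Prg3 and Siglec5 did so only through injured libraries, so calls of the list are not counted. The eosinophil peroxidase Epx, which reached an FPKM of 1 only in SNI, rose by 2.46 and then fell by 0.98, given with no test. The granule protein Prg2, which passed the filter in sham too, rose by 1.28 and then differed by -0.21 (adjusted p = 7.09e-05 and 0.3, edgeR). Receptors that define eosinophils were near zero, Ccr3 with at most 3 and Il5ra with at most 4 estimated counts in any library. The macrophage sum of 10 genes was 178.9 to 196.6 across sham, 392.0 to 404.0 after SNI, and 413.9 to 452.0 with G15, so it did not fall with G15 as Alox15 did. Of 7 genes of serous cavity macrophages, which are known to carry Alox15 in rodents, 2 passed the filter. In SNI against sham 1 was called higher and 1 lower, beside 23.3% and 22.4% of all genes. The mean FPKM of Folr2 was 5.48 in sham and 9.99 in SNI, and that of Lyve1 3.14 and 2.25. Both were called higher with G15, beside 7.98% of all genes: Folr2 rose by 0.46 and Lyve1 by 1.22 (adjusted p = 0.00399 and 1.60e-04, edgeR). The list sum was 8.92 to 9.03 across sham, 12.1 to 13.5 after SNI, and 18.8 to 19.9 with G15, and its defining factor Gata6 had at most 3 counts in any library. The platelet sum was 6.12 to 7.71, 10.8 to 11.4 and 8.7 to 12, respectively. In bulk tissue, fewer cells of a type and less RNA per cell cannot be told apart.

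Interleukin 4 and interleukin 13 are known to induce Alox15 in macrophages and monocytes. Of 13 type 2 response genes listed, 10 were found in the table and 5 passed the filter. Interleukin 4 itself (Il4), its receptor chain Il4ra and Retnla were not found, so no level is given for them. In SNI against sham 3 were called higher and 1 lower, beside 23.3% and 22.4% of all genes. In SNI + G15 against SNI 1 was called higher and 1 lower, beside 7.98% and 7.25%. The gene called lower in SNI was Ccl24, with a mean FPKM of 2.23 in sham, 1.21 in SNI and 1.03 in SNI + G15. The list sum was 50.8 to 53.9 across sham, 85 to 88.7 after SNI, and 87.1 to 90.3 with G15. The cytokine genes Il13 and Il5 had at most 1 count in any library. Arginase 1 (Arg1) rose by 3.67 in SNI against sham and fell by 0.29 in SNI + G15 against SNI on the log2 scale (adjusted p = 2.43e-09 and 0.0271). The receptor chain Il13ra1 rose by 1.32 in SNI (adjusted p = 6.91e-09) and differed by -0.02 with G15 (adjusted p = 0.843). The lectin Clec10a rose by 0.52 in SNI and by a further 0.40 with G15 (adjusted p = 2.51e-04 and 0.0258).

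**Figure D3:**
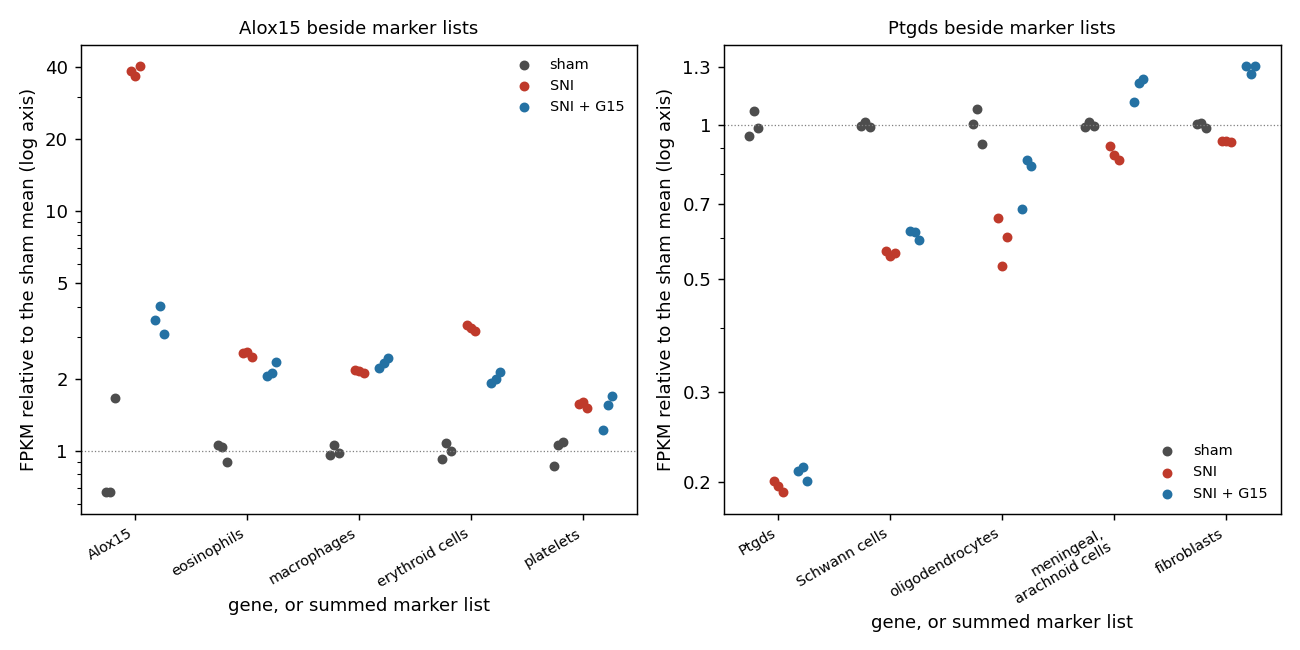
FPKM of Alox15 (left) and Ptgds (right) in each library, relative to the mean of the 3 sham libraries, beside the summed FPKM of marker lists on the same log axis. The SNI points of Alox15 stand well above those of every list beside it, and the erythroid list is lower in SNI + G15 than in SNI, while the injured libraries of Ptgds stand below those of every list beside it.

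Alox12, the platelet-type lipoxygenase, stayed near the limit of measurement. Its FPKM was 0.48, 0.44 and 0.40 in sham, 0.55, 0.66 and 0.54 in SNI, and 0.55, 0.61 and 0.54 in SNI + G15. Both injured groups lay above sham and overlapped each other. No comparison passed the test (adjusted p = 0.216 for SNI against sham, 0.978 for SNI + G15 against SNI and 0.267 for SNI + G15 against sham, from a fit that kept every gene with a count). With 21 to 35 estimated counts per library, the 95% interval of the log2 fold change in SNI against sham ran from -0.05 to 0.80.

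Alox5 makes leukotriene A4 together with its membrane partner Alox5ap. Alox5 measured 1.08, 0.96 and 1.30 FPKM in sham, 1.53, 1.45 and 1.54 in SNI, and 1.56, 1.74 and 1.79 in SNI + G15. The 3 groups did not overlap, but the step from SNI to SNI + G15 was small. Alox5 rose by 0.43 (SE 0.157, adjusted p = 0.0453) in SNI against sham and by 0.52 (adjusted p = 0.0265) in SNI + G15 against sham. The difference of 0.12 between SNI + G15 and SNI did not pass (adjusted p = 0.582). Of 14 alternatives, 7 lost the first call (adjusted p up to 0.149), among them leaving out any library but sham replicate 3, and 5 lost the second (up to 0.0863), among them leaving out sham replicate 1 or 2 or SNI + G15 replicate 2 or 3. Its estimated counts were not whole in 9 of 9 libraries, so both calls are uncertain.

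Alox5ap, the protein that presents arachidonate to Alox5, was more abundant. It measured 8.08, 8.54 and 8.08 FPKM in sham, 8.91, 9.07 and 8.82 in SNI, and 10.06, 10.67 and 11.73 in SNI + G15. The libraries were ordered sham, SNI and SNI + G15 with no overlap. It rose by 0.36 on the log2 scale in SNI + G15 against sham (SE 0.0984, adjusted p = 0.015), a call lost with DESeq2 (adjusted p = 0.0596) and without sham replicate 1. The differences of 0.09 for SNI against sham and 0.29 for SNI + G15 against SNI did not pass (adjusted p = 0.471 and 0.0569), although the latter passed in 4 of 14 alternatives, among them without SNI + G15 replicate 1 (adjusted p = 0.042).

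Lta4h, which hydrolyses leukotriene A4 to the neutrophil attractant leukotriene B4, was the most abundant transcript of the lipoxygenase side. Its FPKM was 24.52, 24.46 and 24.36 in sham, 25.14, 24.10 and 23.14 in SNI, and 24.88, 24.36 and 29.59 in SNI + G15. The groups overlapped, and SNI + G15 replicate 3 stood above the rest. No comparison passed (adjusted p = 0.426, 0.278 and 0.548), and the 95% interval for SNI against sham ran from -0.14 to 0.04 on the log2 scale.

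Ltc4s, which joins leukotriene A4 to glutathione to give leukotriene C4, varied widely in FPKM between replicates. It measured 1.86, 1.58 and 2.55 FPKM in sham, 3.51, 2.64 and 1.70 in SNI, and 2.41, 3.51 and 4.92 in SNI + G15. All 3 groups overlapped. In the counts it rose by 0.63 in SNI + G15 against sham (SE 0.222, adjusted p = 0.0423), a call lost in 7 of 14 alternatives (adjusted p up to 0.138), among them leaving out any library but SNI + G15 replicate 1. Its other differences did not pass (0.23, adjusted p = 0.452, and 0.42, adjusted p = 0.271).

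On the cyclooxygenase side, Ptgs1, the constitutive cyclooxygenase, measured 2.47, 2.24 and 2.44 FPKM in sham, 2.30, 1.65 and 2.47 in SNI, and 3.04, 2.55 and 2.53 in SNI + G15. The SNI + G15 libraries lay above the other 6. No comparison passed the test (adjusted p = 0.334, 0.155 and 0.328). In SNI replicate 2, the lowest library, 89.1% of the gene's FPKM was assigned to the transcript XM_006234063.2, which had none in the sham libraries.

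Ptgs2, the inducible cyclooxygenase, was barely detected. Its estimated counts were 3, 5 and 4 in sham, 7, 5 and 5 in SNI, and 6, 6 and 7 in SNI + G15. These values overlapped between SNI and both other groups, no comparison passed (adjusted p = 0.527, 0.848 and 0.388), and the 95% interval for SNI against sham, from -0.51 to 1.42 on the log2 scale, leaves a change of either sign possible.

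Ptgds, the lipocalin-type synthase of prostaglandin D2 and a carrier of small lipids, is known from glia and meninges. It was the most abundant enzyme in every library, with 984.27, 1098.78 and 1017.44 FPKM in sham, 207.49, 202.74 and 197.08 in SNI, and 216.65, 220.56 and 207.58 in SNI + G15. Sham lay far above both injured groups, whose ranges almost met without overlapping. The log2 fold change was -2.38 (SE 0.0473) in SNI against sham, 0.10 (SE 0.0421) in SNI + G15 against SNI and -2.30 (SE 0.056) in SNI + G15 against sham. Its rank by mean FPKM was 35 among all genes in sham, 392 in SNI and 390 in SNI + G15.

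Among the 5 transcripts closest to Ptgds over the 9 libraries were the myelin gene Pmp22 (Pearson r = 0.9957), Efnb3 (0.9949), Asb15 (0.9949) and Adap1 (0.9947). These correlations, too, share all 9 libraries and describe likeness only. The summed FPKM of 6 Schwann cell genes was 5214.6 to 5343.7, 2918.4 to 2978.9 and 3130.3 to 3259.6, respectively, and 5 of the 6 were called lower in SNI against sham (beside 22.4% of all genes) and 4 higher in SNI + G15 against SNI (beside 7.98%). The sum of 10 meningeal and arachnoid genes was 126.2 to 129.1 across sham, 108.6 to 115.8 after SNI, and 141.0 to 156.9 with G15, with 8 called lower and 1 higher in SNI and 6 called higher and 1 lower with G15, beside the same shares of all genes. Its sum is led by Igfbp2 and Crabp2, the latter of which rose by 1.08 in SNI against sham (adjusted p = 7.69e-07), and the median log2 fold change of the list was -0.71. Its members Slc47a1, Slc6a13 and Igf2, picked after their values were seen, fell by 2.42, 1.42 and 1.23 in SNI (adjusted p = 8.32e-07, 2.22e-07 and 6.06e-08), the first of them 5.35-fold beside 5.21-fold for Ptgds. The sum of 8 oligodendrocyte genes was 27.2 to 31.8, 15.6 to 19.4 and 20.2 to 25.2. Of the 4 that passed the filter, 2 were called lower and 0 higher in SNI against sham (beside 22.4% of all genes called lower). This sum is led by Cldn11, which is also in the meningeal list, with a mean FPKM of 20, 9.33 and 13.1. The means of Mog were 2.33, 2.61 and 2.72, so the sum does not stand for every member. The Ptgds fold exceeded that of every one of these sums but not that of every member, and their part in it was not tested.

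Ptges converts prostaglandin H2 to prostaglandin E2 and is the inducible partner of Ptgs2. It measured 1.92, 2.21 and 1.39 FPKM in sham, 4.16, 3.94 and 4.74 in SNI, and 7.22, 7.46 and 6.65 in SNI + G15. Every SNI library lay above every sham library, and every SNI + G15 library above every SNI library. The estimated counts behind these values were 44, 51 and 32, then 96, 91 and 109, then 166, 171 and 155. Ptges rose by 1.19 in SNI against sham (SE 0.183, adjusted p = 3.87e-04), by 0.74 in SNI + G15 against SNI (SE 0.105, adjusted p = 0.00248) and by 1.91 in SNI + G15 against sham (SE 0.16, adjusted p = 9.76e-06). Each call held in all 14 alternatives, with adjusted p from 1.11e-05 to 0.00209, from 7.07e-04 to 0.0173 and from 6.62e-17 to 1.32e-04. Among the 8 enzymes tested, Ptges was thus the only one called in all 3 comparisons, and Alox15 and Ptges differed in opposite directions between SNI + G15 and SNI.

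Within 7 terminal prostanoid synthases, Ptgds held 88.5% to 89.8% of the summed FPKM across sham, 59.0% to 60.8% after SNI, and 58.2% to 61.9% with G15. Ptges held 0.123% to 0.18%, 1.15% to 1.42% and 1.86% to 2.09%, and Ptges3, the cytosolic prostaglandin E synthase that is also a chaperone, held 8.5% to 9.84%, 32.9% to 34.7% and 31.0% to 34.5%. Ptges3 itself did not pass the test in any comparison (adjusted p = 0.0763, 0.84 and 0.204), so its larger share went with the lower Ptgds. Hpgds, the other prostaglandin D2 synthase and a gene of mast cells and other leucocytes, was named after its values were seen. It measured 0.39 to 0.61 FPKM across sham, 0.93 to 0.97 after SNI, and 0.28 to 0.83 with G15, and rose by 0.82 in SNI against sham when genes below the filter were fitted too (adjusted p = 0.0367).

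**Figure D4:**
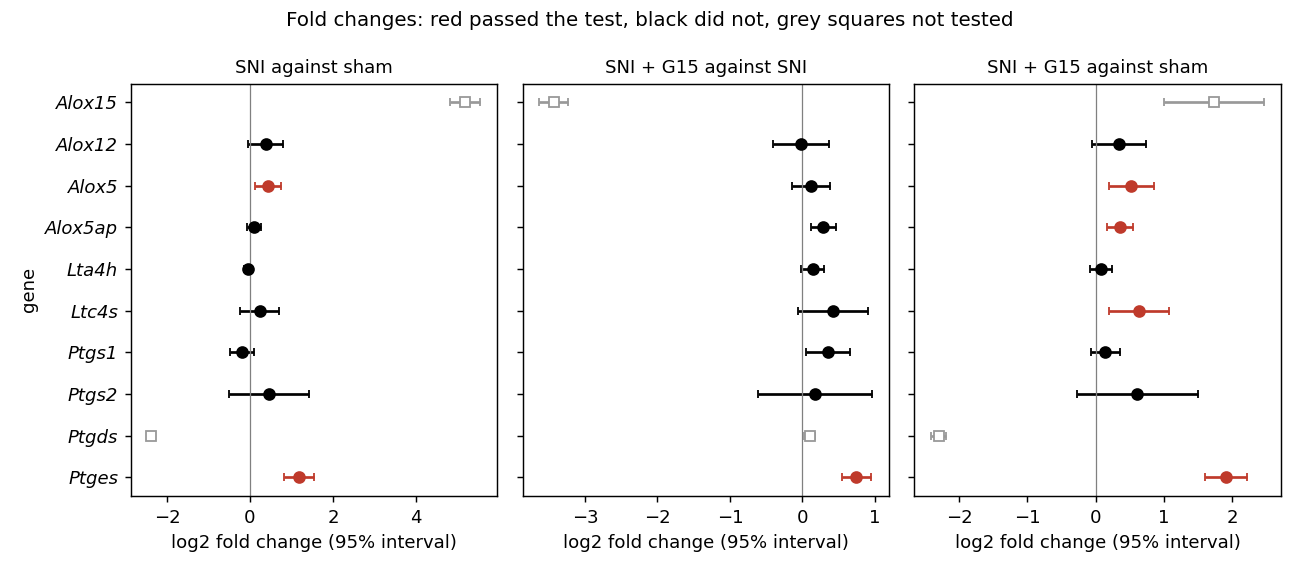
Log2 fold change of each enzyme with its 95% interval in the 3 comparisons; red points passed an adjusted p of 0.05, black points did not, and grey open squares (Alox15 and Ptgds) were not tested. The x axes differ between panels, and Ptges is red in all 3.

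The other genes of the eicosanoid pathway were described from lists of 80 genes, of which 56 passed the filter. In SNI against sham, 15 rose and 17 fell (57.1% called, beside 45.7% of all genes), in SNI + G15 against SNI 9 rose and 3 fell (21.4%, beside 15.2%), and in SNI + G15 against sham 18 rose and 14 fell (57.1%, beside 43.2%). The 12 calls against SNI became 6 without SNI replicate 1, 6 without SNI replicate 2 and 4 without SNI replicate 3. The median log2 fold changes were 0.04, 0.12 and 0.09, beside 0.00, 0.01 and -0.00 over all tested genes.

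Arachidonate is freed and activated upstream of all 10 enzymes. Of 18 supply genes, 6 rose and 8 fell in SNI against sham (77.8% called, beside 45.7% of all genes). Acsl4, which activates arachidonate for loading into phospholipids, rose by 1.03 (adjusted p = 1.77e-07, edgeR), and the endocannabinoid hydrolase Faah by 0.92 (adjusted p = 1.07e-05). Mgll, a monoacylglycerol lipase that releases arachidonate from an endocannabinoid, fell by 0.60 (adjusted p = 3.33e-07), and Pla2g7, which degrades platelet-activating factor, fell by 1.33 (adjusted p = 3.51e-08). With G15, the secreted phospholipases Pla2g2a and Pla2g2d rose by 1.37 and 1.35 against SNI (adjusted p = 0.0116 and 0.00443), and Acsl4 fell by 0.25 (adjusted p = 0.015). Pla2g2a had fallen by 1.56 in SNI against sham (adjusted p = 5.59e-04), and its SNI + G15 value did not differ from sham by the test (-0.21, adjusted p = 0.424).

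Among the genes that use leukotrienes and lipid hydroperoxides, Ggt5, which cleaves leukotriene C4, rose by 1.10 in SNI against sham (adjusted p = 1.41e-07). Gpx4, which reduces lipid hydroperoxides, fell by 0.30 in SNI (adjusted p = 7.64e-04) and rose by 0.24 with G15 (adjusted p = 0.0423). Of the other terminal synthases, thromboxane synthase (Tbxas1), a macrophage and platelet gene, rose by 1.39 (adjusted p = 1.15e-04), while Akr1b1, an aldose reductase that also makes prostaglandin F2 alpha, fell by 0.71 (adjusted p = 1.80e-06) and Ptges2 fell by 0.29 (adjusted p = 0.00545) in SNI against sham. Between SNI + G15 and SNI, edgeR's test passed 0 of these 7 other synthase genes, beside 15.2% of all genes. With 7 genes, nothing particular to them is read from this count.

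Of 12 receptors tested, 3 rose and 4 fell in SNI against sham (58.3% called, beside 45.7% of all genes) and 2 fell with G15 (16.7%, beside 15.2%), shares near those over all genes. Ptger4, a receptor for prostaglandin E2, had an FPKM of 3.18, 3.37 and 3.60 in sham, 7.65, 8.44 and 8.33 in SNI, and 6.08, 6.32 and 5.79 in SNI + G15. It rose by 1.10 in SNI (adjusted p = 4.31e-07) and fell by 0.32 with G15 (adjusted p = 0.00986), whereas its ligand's synthase Ptges rose in both comparisons; its estimated counts were not whole in 9 of 9 libraries. The receptors for thromboxane (Tbxa2r), prostaglandin F2 alpha (Ptgfr) and prostaglandin D2 (Ptgdr) fell by 0.83, 0.45 and 0.42 in SNI against sham (adjusted p = 0.00189, 0.00912 and 0.0169). The leukotriene receptor Cysltr2 fell by 0.37 with G15 (adjusted p = 0.00356).

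In the epoxide branch, which runs in parallel to both, the microsomal hydrolase Ephx1 fell by 0.84 in SNI (adjusted p = 2.97e-06). The soluble hydrolase Ephx2 rose by 0.65 in SNI against sham and by 0.44 in SNI + G15 against SNI (adjusted p = 0.00234 and 0.0336). The prostaglandin transporter Slco2a1 rose by 0.44 in SNI (adjusted p = 0.0089), and Ptgr2, a reductase of prostaglandin breakdown products, rose by 0.30 with G15 (adjusted p = 0.0122).

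Some calls named in these lists did not hold throughout. Against SNI, that of Gpx4 was lost in 6 of 14 alternatives, among them without any 1 of the SNI replicates, and that of Ephx2 in 6, among them without any library but SNI + G15 replicate 2. Those of Pla2g2a and Acsl4 were lost without SNI replicate 2 or 3, that of Ptgr2 without SNI replicate 1 or 3, and that of Ptger4 without SNI replicate 2. In SNI against sham, that of Ptgdr was lost in 4, namely with DESeq2 and without sham replicate 2, sham replicate 3 or SNI replicate 3.

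Libraries were alike in depth, with 18484557 to 18756736 estimated counts each, and the label DRG was met by sensory neuron genes. The neuronal sum of 10 genes was 12978.5 to 13404.2 FPKM across sham, 11516.0 to 11872.8 after SNI, and 11717.1 to 12322.3 with G15. Its members did not all move alike: 6 were called lower and 2 higher in SNI against sham, beside 22.4% and 23.3% of all genes. The mean FPKM of Nefl was 3685.0 in sham and 2202.1 in SNI, and that of Tubb3 2295.2 and 2991.5. Neutrophil genes summed to 140.4 to 168.6, 220.5 to 258.0 and 233.9 to 277.8, and fibroblast genes to 504.8 to 517.1, 475.0 to 476.4 and 643.9 to 668.3. The neuronal sum was lower and the neutrophil sum higher in both injured groups than in sham, the neutrophil ranges of SNI and SNI + G15 overlapped, and the fibroblast sum was highest with G15. Their part in the enzyme levels was not tested.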

How the data were processed

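Values from 9 DRG libraries (3 sham, 3 SNI, 3 SNI + G15) were used. The authors deposited FPKM per gene and transcript, a gene's FPKM being the sum over its transcripts, and estimated counts, which were not normalized and of which 70.9% to 72.0% per library were whole (within 0.005). Besides the genes marked above, others had counts that were not whole in all 9 libraries, so their levels are uncertain too. Among them were Hba2 and Hbb, which lead the erythroid sum, and Lyve1, Ptgdr, Slco2a1 and Ptges3. For Faah this held in 8 libraries. The aligner is not given in the sources used here. The submitters' processing notes name the mouse builds GRCm38 and mm10 although the samples are rat. The labels' extraction protocol names macrophages and another library kit than the methods, whose DMSO concentration also differs. Deposited columns named Control were taken as sham, the group the other names leave. Group averages and the authors' own comparisons were not used.

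Estimated counts were rounded and tested in R 4.3.3 with edgeR 4.0.16 (TMM, quasi-likelihood test, only the libraries compared), over the 14305 genes that reached an FPKM of 1 in any library. Benjamini-Hochberg adjustment ran over all of them, with a threshold of 0.05. Alox12, Ptgs2, Hpgds, Cysltr1 and Alox15b came from a fit that kept every gene with a count. A gene was called higher or lower where its adjusted p passed. Alternatives used DESeq2 1.42.0, limma 3.58.1 on log2(FPKM + 1) or log2(FPKM + 0.1), another normalization, 2 other filters, a joint fit of all 9 libraries, the replicate number as a block, and fits without each replicate in turn. On simulated counts for 14305 genes, with a log2 change of 1 put into 200, edgeR recovered 99% for SNI against sham, 98.5% for SNI + G15 against SNI and 98% for SNI + G15 against sham. False calls numbered 10, 9 and 11. The changed genes were drawn only from those with higher counts, and 1 assumed dispersion served all genes and libraries. Recovery for enzymes with few counts, such as Ptgs2, was therefore not measured. The replicates of each group differed by more than sampling noise, SNI + G15 replicate 3 from the others of its group by the most. Replicate numbers did not pair the libraries: 0 of 9 correlations of same-numbered deviations exceeded 0.1.

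The members, gene lists and tests were chosen with earlier results of these data known. Genes named are all 10 enzymes, at most the 5 called genes of smallest adjusted p per pathway list and comparison, the 5 nearest genes to Alox15 and Ptgds, and the 2 most abundant markers per list, apart from those named for their part in a result. Of these, 1 gene is not reported here. Gene IDs are from NCBI, and 18599 of 20194 were in the RefSeq table of GRCr8, used for names and promoter windows only. The build of the deposited values is uncertain, so the only coordinates given are those of the GRCr8 promoter windows.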

Additional observations from a re-analysis of the deposited data

How the results depend on the processing

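The rise of Ptges kept its side of the threshold in all 3 comparisons under all 14 alternatives each, and the direction of Alox15 against SNI or sham and of Ptgds held in all. Of the 8 tested enzymes, 2 were called in SNI against sham, 1 with DESeq2, 1 with the replicate block and 1 to 2 with a replicate left out. In SNI + G15 against SNI, 1 was called, and 2 with limma at either pseudocount and with all 9 libraries in one fit (Alox5ap joining Ptges), and 1 to 2 with a replicate left out. In SNI + G15 against sham, 4 were called, 1 with DESeq2, 3 with the replicate block and 1 to 4 with a replicate left out, the lowest without sham replicate 1. The cause of these differences was not tested. The replicate numbers did not pair the libraries; over all genes the block changed the calls from 6537 to 6440, from 2179 to 1292 and from 6186 to 5735. The pathway lists held 12 calls in SNI + G15 against SNI, and 4 to 11 with a replicate left out: 6 without SNI replicate 1, 6 without SNI replicate 2 and 4 without SNI replicate 3, fits with fewer samples.

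The log2 fold change of Alox15 was 3.11 in SNI against sham, -2.51 in SNI + G15 against SNI and 0.60 in SNI + G15 against sham on log2(FPKM + 1), where the pseudocount lies above its sham level. Differences that changed sign were all near zero: Alox12 in SNI + G15 against SNI (-0.02) became 0.085, 0.011 and 0.004 without SNI replicate 2, SNI + G15 replicate 1 and SNI + G15 replicate 3 (range -0.078 to 0.085 over all left-out replicates), and Lta4h in SNI + G15 against sham (0.07) became -0.025 without SNI + G15 replicate 3 (range -0.025 to 0.125). On log2(CPM + 1), 3 of the 5 genes nearest to Alox15 and 4 of the 5 nearest to Ptgds were shared. The share of the Ltc4s transcript NM_053639.2 in SNI was 73.6% of FPKM and 42.1% of estimated counts. For Alox15 in sham, for Alox12 and for Ptgs2, precision was limited by counts of 35 or fewer per library.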

Other observations

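Mast cells, which make prostaglandin D2 with Hpgds, were not part of the comparisons above. Between SNI + G15 and SNI, the mast cell protease genes Cpa3, Cma1 and Tpsb2 rose by 2.43, 3.09 and 2.98 on the log2 scale. These 3 reached an FPKM of 1 only in SNI + G15, so their rise is described with no test. In SNI they had 3 to 8, 3 to 4 and 1 to 4 estimated counts per library, respectively. Kit, which sensory neurons also express, differed by -0.05 (adjusted p = 0.551, edgeR). The 3 protease genes were named after their values were seen. The leukotriene receptor Cysltr1, below the FPKM filter and likewise chosen afterwards, rose by 1.42 in SNI against sham when unfiltered genes were fitted too (adjusted p = 1.78e-04), and differed by -0.13 between SNI + G15 and SNI (adjusted p = 0.625).

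Alox15b, another lipoxygenase chosen after its values were seen, measured 0.21 to 0.29 FPKM across sham, 0.23 to 0.29 after SNI, and 0.05 to 0.14 with G15. When genes below the filter were fitted too, it fell by 1.55 in SNI + G15 against sham (adjusted p = 0.0284, edgeR). Its difference of -1.54 from SNI did not pass in such a fit (adjusted p = 0.0595). It had at most 13 estimated counts per library.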
